A study of Homo sapiens with 8 samples.

Results

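PNRC1 and PNRC2 are the 2 genes of the proline-rich nuclear receptor coactivator family, and the peaks of the transcription factor RFX7 at these genes are described here. A peak was taken when it came within 10 kb of the gene record of PNRC1 on chromosome 6 or PNRC2 on chromosome 1, and 3 of the 1790 peaks of the series met this rule. The peaks were measured by chromatin immunoprecipitation followed by sequencing (ChIP-seq) with an antibody against RFX7 in RPE-1, an established line of human retinal pigment epithelial cells immortalised with telomerase. For 24 h the cells were given either 10 µM Nutlin-3a, which blocks the binding of MDM2 to p53 and so stabilises p53, or DMSO, the solvent. Of the 8 samples, 2 RFX7 ChIP and 2 input chromatin samples came from either treatment, all from this 1 cell line. The deposited values were 1 peak list per treatment, with 556 peaks for DMSO and 1234 for Nutlin-3a. No value belonged to a single sample, so no value below has a replicate error, no difference between the treatments could be tested, and a site missing from a list is one that was not called there. The lists do not give the read depth. PNRC1 and PNRC2 were chosen because they had peaks, so the presence of these peaks is a description and not a finding.

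The PNRC proteins are small and rich in proline. A short motif near the end of each protein, of the kind that SH3 domains bind, contacts nuclear receptors such as the estrogen receptors and raises their transcriptional activity. Both proteins also bind the machinery that removes the cap from mRNAs. PNRC2 links the decay factor UPF1 to the decapping activator DCP1A in nonsense-mediated mRNA decay, and PNRC1 can draw DCP1A and the decapping enzyme DCP2 into the nucleolus. RFX7 belongs to the RFX family, whose winged-helix domain binds the X-box, a DNA element made of a pair of short half-sites in inverted order. In several human cell types RFX7 is known as a factor that p53 activates indirectly and that then switches on growth-restraining genes.

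The Nutlin-3a peaks lay at or just downstream of the starts of both genes, and the promoters share a half-site of the X-box. The sequences before these starts are therefore shown. They are the 250 bases before and the first 20 bases after the start that RefSeq gives for build GRCh38.p14, on the plus strand, at chr6:89080501-89080770 for PNRC1 and chr1:23959578-23959847 for PNRC2. Capitals mark the half-site GTTGCT, or AGCAAC where it is read from the other strand. The bases shown for PNRC1 end before its Nutlin-3a peak begins at 89080777, and those for PNRC2 lie inside its peak.
PNRC1: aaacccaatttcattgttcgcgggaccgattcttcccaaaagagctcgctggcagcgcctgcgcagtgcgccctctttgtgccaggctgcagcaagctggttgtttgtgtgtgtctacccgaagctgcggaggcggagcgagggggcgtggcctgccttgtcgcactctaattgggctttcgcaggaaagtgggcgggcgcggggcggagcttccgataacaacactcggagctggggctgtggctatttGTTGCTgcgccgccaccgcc
PNRC2: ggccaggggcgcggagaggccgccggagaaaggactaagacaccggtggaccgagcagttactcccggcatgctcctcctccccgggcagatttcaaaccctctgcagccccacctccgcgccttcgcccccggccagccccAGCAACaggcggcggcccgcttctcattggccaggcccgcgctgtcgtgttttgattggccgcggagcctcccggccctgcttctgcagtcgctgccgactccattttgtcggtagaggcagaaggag

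After Nutlin-3a treatment, PNRC1 and PNRC2 each had 1 peak, wide and strongly called, at or just downstream of the gene start. In DMSO, PNRC1 had 1 short peak and PNRC2 had none. By the same 10 kb rule, 1.35% of 20033 protein-coding genes had a peak in the Nutlin-3a list (270 genes) and 0.0649% in the DMSO list (13 genes). Since the rule chose the genes by these peaks, nothing is read from that difference.

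The Nutlin-3a peak at PNRC1 spanned chr6:89080777-89082143, 1367 bp in all. The authors' fold enrichment for it was 5.37, with a −log10 p of 259.6, a −log10 q of 253 and a score of 2533. The Nutlin-3a peak at PNRC2 spanned chr1:23959273-23960236, or 964 bp, with a fold enrichment of 6.69, a −log10 p of 285, a −log10 q of 278 and a score of 2783. Within this list, PNRC2 was thus the higher of the 2 genes by fold enrichment, −log10 p and −log10 q, and PNRC1 had the wider peak. The DMSO peak at PNRC1 spanned chr6:89081629-89081828, or 200 bp, with a fold enrichment of 4.94, a −log10 p of 30.2, a −log10 q of 25.02 and a score of 250. Values of the DMSO peak belong to another list with its own scale and are given beside those of the Nutlin-3a peak without a comparison.

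The other listed peaks lay far from the member peaks. The next nearest Nutlin-3a peak to the PNRC1 record was 1.61 Mb away (fold enrichment 3.31, −log10 p 6.61), and that to PNRC2 was 4.28 Mb away (8.66, −log10 p 35.3). In the DMSO list the next peak was 13.13 Mb from PNRC1 (5.17, −log10 p 8.41), and the nearest to PNRC2 was 97.78 Mb away (2.05, −log10 p 10.6). No peak therefore lay just outside the 10 kb limit, and with windows of 1, 50 or 100 kb the same numbers of peaks were found. All 3 member peaks also passed a −log10 q of 10.

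**Figure D1:**
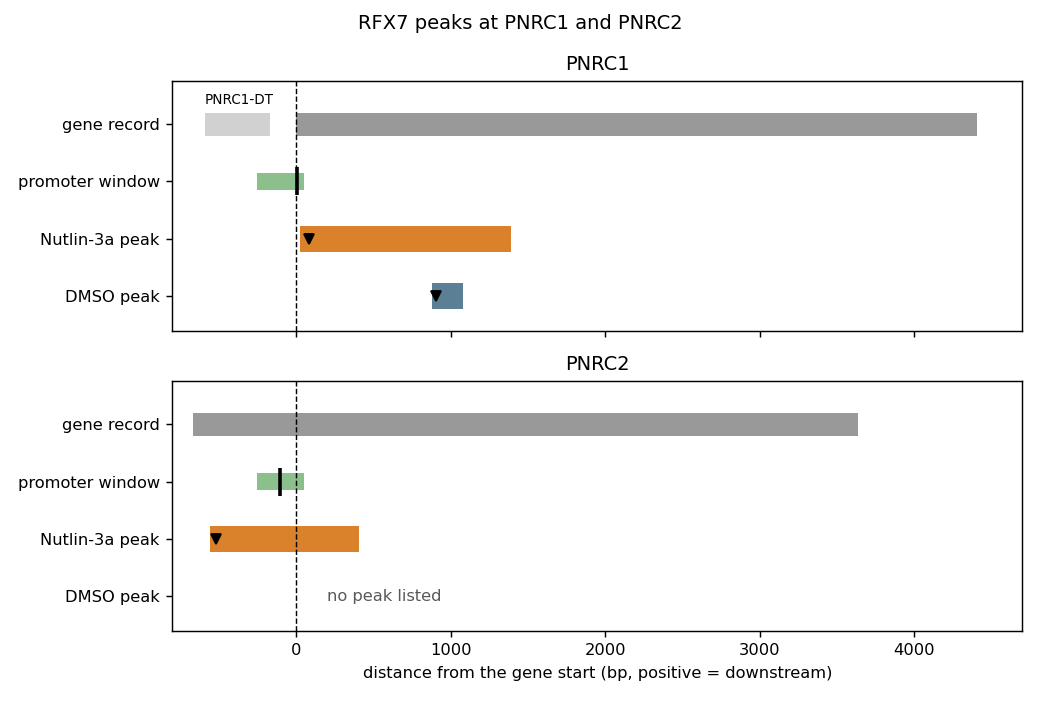
Position of the RFX7 peaks at PNRC1 (top) and PNRC2 (bottom) in base pairs from the gene start, with the gene record in grey, the RefSeq promoter window in green with a black tick at GTTGCT, the Nutlin-3a peak in orange and the DMSO peak in blue. Black triangles are the deposited summits. The PNRC1 peak runs from 26 to 1392 bp downstream of the start, the PNRC2 peak from 555 bp upstream to 408 bp downstream, and the 200 bp DMSO peak lies inside the extent of the Nutlin-3a peak at PNRC1.

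The peaks at the 2 genes were placed differently about the starts that the RefSeq promoter windows give. Both genes lie on the plus strand. The PNRC1 record runs from 89080751 to 89085160 (4410 bp), and its Nutlin-3a peak began 26 bp downstream of the start, ended 1392 bp downstream and covered 31.0% of the record. The PNRC2 record runs from 23959164 to 23963462 (4299 bp). RefSeq's promoter window for PNRC2 sets its start at 23959828, which is 664 bp inside the record. The PNRC2 peak held that start, reaching from 555 bp upstream to 408 bp downstream of it. It covered 22.4% of the record and began 109 bp after the record does. Measured from the starts of the records instead, both peaks lay downstream. They began at 26 bp (PNRC1) and 109 bp (PNRC2), with summits at 85 and 148 bp. Which PNRC2 start is used in RPE-1 cells could not be told. No exon or intron annotation was used here, so the parts of the genes under the peaks are not named.

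Summits in these lists can sit at the left edge of wide peaks, so distances are also given from the middle. The deposited summit of the PNRC1 peak was 59 bp from its left edge (4.32% of its width) and that of the PNRC2 peak 39 bp (4.05%). Of the 56 Nutlin-3a peaks at least 300 bp wide with the summit no more than 1000 bp from an end of a protein-coding gene record, 15 had the summit in the leftmost 10%. From the summit, the PNRC1 peak was 85 bp downstream of the start and the PNRC2 peak 516 bp upstream. From the middle, they were 709 bp downstream and 74 bp upstream.

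Set against the other Nutlin-3a peaks at the starts of RefSeq promoter windows, PNRC2 was near the centre of the range. PNRC1 was near its downstream end. The place of PNRC2 rests on the start 664 bp inside its record. RefSeq promoter windows gave starts for 15842 of the 20033 protein-coding genes, and 105 Nutlin-3a peaks came within 1000 bp of such a start. The start was inside the peak in 55 of them, PNRC2 included. In 35 the peak was wholly upstream, and in 15, PNRC1 included, wholly downstream. The median position of the middle was 55 bp upstream of the start, with quartiles of 189 bp upstream and 57 bp downstream. The middle of the PNRC1 peak was the second most downstream of the 105. Each peak was measured from the start nearest to it. Some genes had several starts to be measured from, while PNRC1 and PNRC2 had a single start each. Among the 15 peaks wholly downstream of the start, PNRC1 had the widest, with 815 bp for the next.

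**Figure D2:**
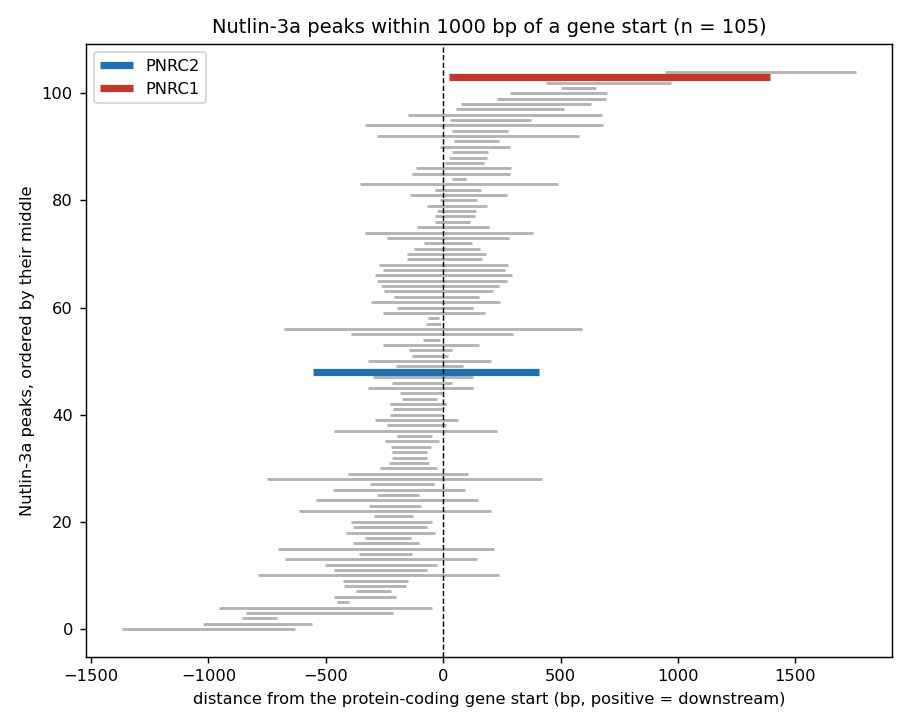
Extent of the 105 Nutlin-3a peaks that came within 1000 bp of a protein-coding gene start, 1 line per peak ordered by its middle, with the distance from the start in base pairs on the horizontal axis (positive is downstream). The PNRC2 peak (blue) crosses the start, and the PNRC1 peak (red) lies wholly downstream, next to the top.

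Both peaks were among the widest of their list. PNRC1 had the widest of all 1234 Nutlin-3a peaks, 96 bp wider than the next (1271 bp), and PNRC2 ranked 11. The median width was 161 bp, with quartiles of 98 and 262 bp. Of the 11 widest peaks, 5 had a summit no more than 1000 bp from an end of a protein-coding gene record. Besides PNRC1 and PNRC2 these were at MXD4, DDIT4 and PDCD4, named after their values were seen. The peak ranked 4 (1170 bp) was 42208 bp from such an end but held a RefSeq promoter start of PIK3R3, also named afterwards. MXD4 codes for a MYC antagonist, DDIT4 for an inhibitor of mTOR signalling, and PDCD4 for an inhibitor of translation. In the DMSO list, the PNRC1 peak ranked 185 of 556 by width, where the median was 153.5 bp.

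By −log10 p, which grows with both enrichment and read number, PNRC2 ranked 28 and PNRC1 ranked 32 of 1234. Most of the peaks above them were in clusters, defined as places with at least 5 other listed regions within 500 kb. Of the 27 peaks above PNRC2, 25 were clustered, and of the 31 above PNRC1, 27 were. Among the 425 Nutlin-3a peaks outside clusters, PNRC2 ranked 3 and PNRC1 ranked 5, against a median −log10 p of 13.5. Peaks with a summit no more than 1000 bp from an end of a protein-coding record are here called boundary peaks. Of these 101 peaks, PNRC2 ranked 2 and PNRC1 ranked 4, and the median there was 27.2.

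By fold enrichment the members were less extreme. PNRC2 ranked 74 and PNRC1 ranked 139 of 1234. Outside clusters they ranked 61 and 111 of 425, where the upper quartile of fold enrichment was 5.44. Among the 101 boundary peaks they ranked 29 and 47, and the median of those was 5.08. Only 1 Nutlin-3a peak exceeded PNRC2 in both fold enrichment and −log10 p, although 73 exceeded it in fold enrichment. For PNRC1 these counts were 3 and 138.

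Peaks of nearly equal fold enrichment had much smaller −log10 p values. The 3 peaks next above and the 3 next below PNRC1 had fold enrichments of 5.341 to 5.402. Their −log10 p values lay between 9.01 and 17.4, and their widths between 50 and 296 bp. The 6 neighbours of PNRC2 in fold enrichment, at 6.57 to 6.75, had −log10 p values between 20.7 and 96.8 and widths between 91 and 1087 bp. Of those 6, the peak of 820 bp at 2347 bp from a boundary of CCND1, the gene of cyclin D1, had a −log10 p of 41.4. The peak whose summit lay 629 bp from a boundary of DYRK1B, a protein kinase gene, had 35.5. Its listed fold enrichment, 6.69361, was the same as that of PNRC2. Neither group of neighbours reached the −log10 p of its member. Whether the fold enrichment and −log10 p of a wide peak refer to the same position in it is not given. These pairings and the joint counts above therefore describe listed values only.

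**Figure D3:**
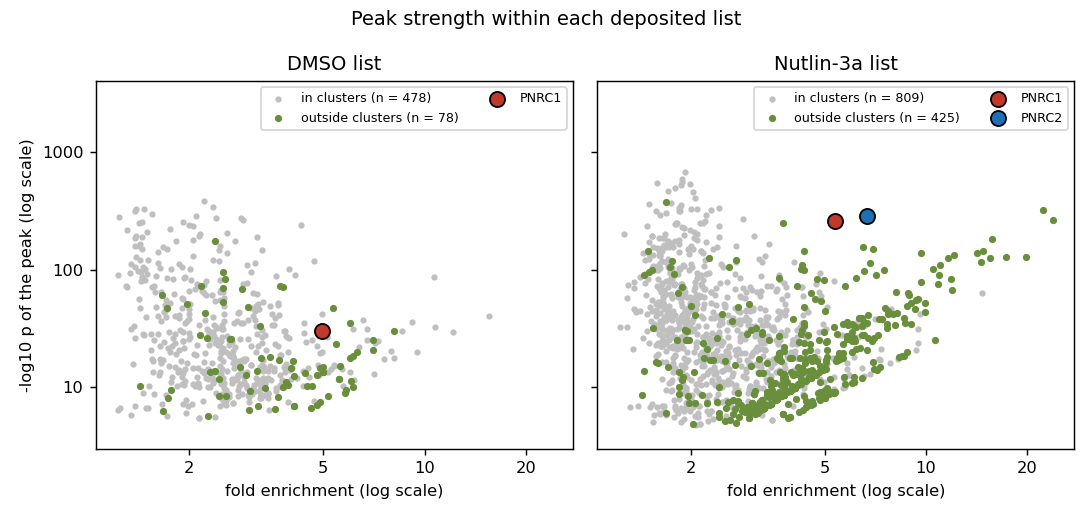
Fold enrichment against −log10 p, both on log scales, for every peak of the DMSO list (left) and the Nutlin-3a list (right), with clustered peaks in grey, other peaks in green and the members as large points. In the Nutlin-3a list PNRC1 (5.37-fold, −log10 p 259.6) and PNRC2 (6.69-fold, 285) sit above the other peaks of similar fold enrichment.

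At PNRC1 the lists shared a region, though the peaks had different extents. The DMSO peak lay wholly within the Nutlin-3a peak and made up 14.6% of it. The Nutlin-3a peak went on for 852 bp upstream of the DMSO peak, towards the gene start, and for 315 bp downstream. The summits were 820 bp apart and the middles 268 bp apart. In DMSO the peak began 878 bp downstream of the start, with its summit at 905 bp and its middle at 977 bp.

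Such a difference in extent was uncommon among regions present in both lists. Over 312 peaks that overlapped 1 to 1, the Nutlin-3a peak was 1.14 times as wide as the DMSO peak at the median, with quartiles of 1.01 and 2.15. At PNRC1 it was 6.84 times as wide, rank 4 of 312. Of the 35 such pairs outside clusters, PNRC1 had the largest ratio, with 5.28 for the next. The summit distance at PNRC1, 820 bp, was matched by 1 other pair and exceeded by none, and the median was 4.5 bp. At PNRC1 the Nutlin-3a summit lay 59 bp from the left edge of its peak, and the middles were 268 bp apart. No shift of the bound position is read from the summit distance. Width depends on where each list's threshold falls, and how that differed between the lists was not tested.

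Among the 35 Nutlin-3a peaks outside clusters that were also in the DMSO list, PNRC1 ranked 2 by −log10 p and 3 by fold enrichment. The median −log10 p of these 35 peaks was 34.7 and the median fold enrichment 2.33. Among the 35 DMSO peaks outside clusters that were also in the Nutlin-3a list, PNRC1 ranked 15 by −log10 p and 8 by fold enrichment. In the whole DMSO list it ranked 201 of 556 by −log10 p and 50 by fold enrichment. The DMSO list had only 1 boundary peak, that at PNRC1. These ranks and the width ratios above therefore set PNRC1 against regions whose DMSO peak was not a boundary peak. PNRC2 ranked above PNRC1 by both measures after Nutlin-3a and had no counterpart in DMSO. The same held for most Nutlin-3a peaks outside clusters, since 35 of the 425 overlapped a DMSO peak. Of the 12 Nutlin-3a peaks outside clusters that were at least 900 bp wide, PNRC1 was the 1 that overlapped a DMSO peak. That share is close to the 35 of 425, so nothing particular to PNRC1 is read from it.

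**Figure D4:**
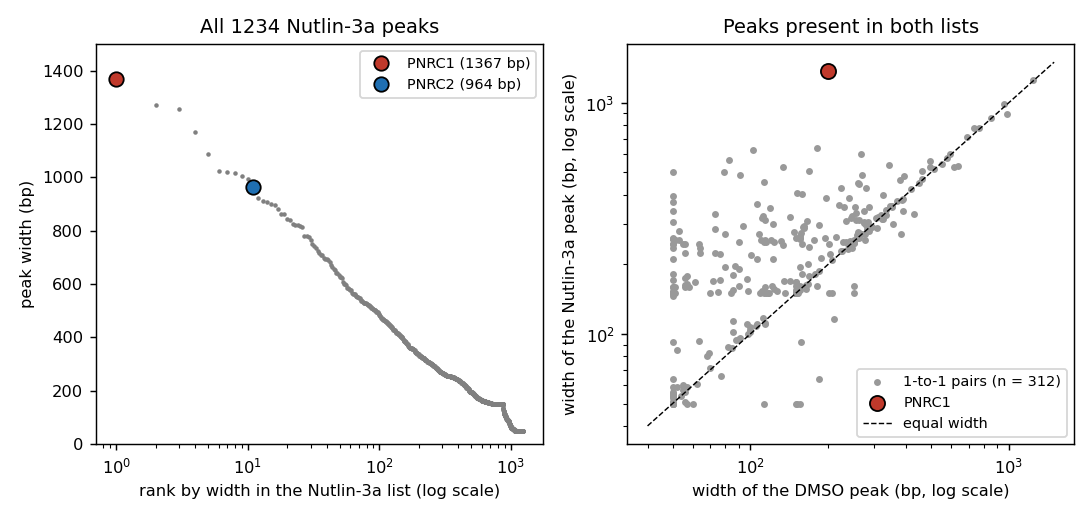
Left, width in base pairs of all 1234 Nutlin-3a peaks against their rank (log scale), with PNRC1 at rank 1 (1367 bp) and PNRC2 at rank 11 (964 bp). Right, width of the DMSO and the Nutlin-3a peak (log scales) at 312 regions that overlapped 1 to 1, where the PNRC1 pair (200 and 1367 bp) lies far above the dashed line of equal width.

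No other protein-coding gene had its start within 10 kb of a member peak. PNRC1-DT, a non-coding RNA gene read in the opposite direction, starts 171 bp upstream of the PNRC1 start, and the Nutlin-3a peak lay 197 bp from its record. The next protein-coding genes to PNRC1 were RNGTT, which codes for an mRNA capping enzyme, 117133 bp to the left, and PM20D2, 8780 bp to the right of the PNRC1 record. The Nutlin-3a peak was 11797 bp from the PM20D2 record. At PNRC2 the next protein-coding genes were the cannabinoid receptor gene CNR2, 45802 bp to the left, and SRSF10, a splicing factor gene, 885 bp to the right. SRSF10 is read towards PNRC2, with its start 20499 bp downstream of the PNRC2 start, and its record was 4111 bp from the PNRC2 peak. LOC124903877, a non-coding RNA gene, ended 1159 bp before that peak. The pseudogenes H3P1 near PNRC2 and RN7SL336P near PNRC1 had their nearest Nutlin-3a peak at 9890 and 8803 bp, again the member peaks.

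Both promoters held GTTGCT, a variant of the X-box half-site. Promoter windows of 300 bases (250 before and 50 after the start) were searched on both strands for GTTGCC and GTTGCT, which are variants of the half-site and differ in their last letter. Neither window held GTTGCC, and each held GTTGCT 1 time. In PNRC1 it covered bases 1 to 6 counted from the start, on the plus strand. In PNRC2 it lay 108 to 103 bases before the start, on the minus strand. Read on the strand of the half-site, the 20 bases around it were as follows, with the DCP2 promoter, described below, for comparison.
PNRC1: gctatttGTTGCTgcgccgc
PNRC2: gccgcctGTTGCTggggctg
DCP2: ctgctcaGTTGCTactcaga

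The GTTGCT half-sites were placed differently relative to the peaks. The PNRC2 window was wholly inside its Nutlin-3a peak, 300 of 300 bases, and the half-site was 29 bp from the middle of the peak and 408 bp from the deposited summit. Only 24 bases of the PNRC1 window were inside its peak, and the half-site was 21 bp outside it, 80 bp from the summit and 704 bp from the middle. The sequence under the rest of the PNRC1 peak was not analysed here. In all, 107 of 22198 promoter windows of protein-coding genes (0.482%) touched a Nutlin-3a peak, and 32 (0.144%) lay wholly inside one. A DMSO peak was touched by 0 windows, for which an approximate 95% limit of 3 counts is 0.0135%. That limit is meant for random samples, whereas all windows were counted here and several can belong to the same gene.

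GTTGCT was present in 12.4% of all 22198 windows and in 19 of the 32 windows wholly inside a Nutlin-3a peak (59.4%), PNRC2 among them. GTTGCC was in 12.6% of all windows and in 12 of the 32 (37.5%). At least 1 of these 2 half-sites was in 23.1% of all windows and in 28 of the 32. Further variants were searched after the data were seen. GTTACC was in neither promoter, in 6.12% of all windows and in 1 of the 32. GTTACT was absent from the PNRC1 window and occurred 1 time in that of PNRC2, 193 to 188 bases before the start on the plus strand, inside the peak. It was in 6.05% of all windows and in 6 of the 32. The full X-box palindrome, GTTGCC followed after 2 free bases by its reverse complement, was matched in neither promoter with fewer than 4 mismatches over its 12 defined bases. As few mismatches were found in 67.1% of all windows and in 78.1% of the 32. Of the 32, 0 had a match with at most 1 mismatch, beside 200 of all 22198 windows (0.901%). With so low a share among all windows, nothing is read from the 0. These windows were grouped by the peaks, several can belong to 1 gene, and the shares are descriptions without a test.

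The promoters also shared CCAAT boxes, the element that NF-Y binds. Searched on both strands, CCAAT occurred 2 times in each. In PNRC2 these boxes lay 83 to 79 and 54 to 50 bases before the start, inside the peak. In PNRC1 they lay 246 to 242 and 80 to 76 bases before it, outside the peak. At least 1 CCAAT was in 34.7% of all windows and in 25 of the 32 inside a Nutlin-3a peak (78.1%). Of all windows 11.4% held 2 or more CCAAT boxes, against 17 of the 32 (53.1%). GTTGCT together with 2 or more CCAAT boxes was found in 1.604% of all windows and in 9 of the 32 (28.1%). The cut at 2 boxes and this combination match what both members hold, and PNRC2 is itself among the 9. Nothing particular to the members is therefore read from these shares. The promoters differed in the GC box GGGCGG, a site for Sp1-type factors, with 3 matches in PNRC1 and 0 in PNRC2. It was present in 56.3% of all windows and in 22 of the 32. None of the matches in the 2 promoters overlapped another. In base composition the promoters were ordinary, with 61.7% G or C in PNRC1 and 67.3% in PNRC2 against a median of 62.3% of all windows. Each held 26 CG pairs against a median of 21. The 32 windows inside a Nutlin-3a peak had medians of 66.2% and 26.5, and the motif shares were not adjusted for composition.

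**Figure D5:**
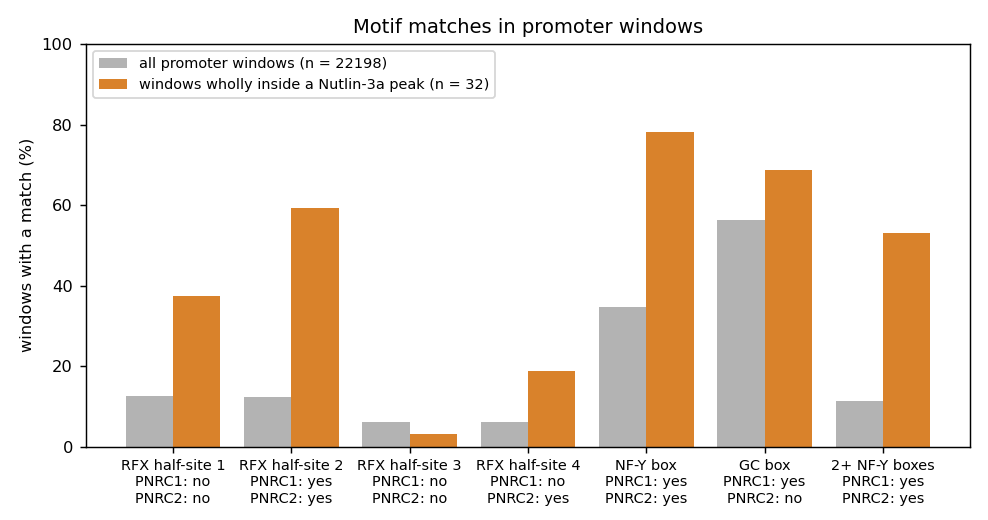
Share of promoter windows (%) with at least 1 match to each motif, for all 22198 windows (grey) and the 32 windows wholly inside a Nutlin-3a peak (orange), with the presence in PNRC1 and PNRC2 below each pair of bars. RFX half-site 1 is GTTGCC, half-site 2 is GTTGCT, half-sites 3 and 4 are the further variants in the order of the text, and NF-Y boxes are the CCAAT boxes. Both members hold half-site 2 and 2 or more NF-Y boxes. PNRC2 is among the 32 windows, but PNRC1 is not, and its matches lie outside its peak.

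Of the genes whose products work with PNRC proteins, DCP2 had RFX7 peaks. The decapping and decay list held 19 genes, from the decapping enzyme and its activators to the exonucleases XRN1 and XRN2. In the Nutlin-3a list 1 of the 19 (5.26%) had a peak within 10 kb, against 1.35% of all protein-coding genes, and with 1 gene nothing particular to the list can be read from this. DCP2, the decapping enzyme itself, had 2 peaks there. The stronger spanned chr5:112976578-112976834 (257 bp, 5.44-fold, −log10 p 17.7), from 220 bp upstream to 36 bp downstream of the start. The weaker spanned chr5:112976346-112976395 (50 bp, 5.35-fold, −log10 p 9.01), wholly upstream of it. In fold enrichment these peaks ranked 135 and 140 of 1234, on either side of PNRC1 at 139, but by −log10 p they ranked 739 and 1015. The DCP2 window held GTTGCT 1 time, on the minus strand and at the upstream edge of the stronger peak, no GTTGCC, and CCAAT 5 times.

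None of the other 18 genes of that list had a peak within 10 kb after Nutlin-3a, among them DCP1A, DCP1B and EDC4. The nearest, named after its value was seen, was EDC3, an enhancer of decapping, with a peak 31899 bp away. Of 12 genes of nonsense-mediated and Staufen-mediated decay, including UPF1, 0 had a peak within 10 kb. Of 20 genes of nuclear receptors, coactivators and corepressors, including ESR1, ESRRA, NCOA1 and the adaptor gene GRB2, 0 had one. Of all 51 genes on the 3 lists, 0 had a peak in DMSO, against a background of 0.0649%. By an approximate 95% limit of 3 counts, counts of 0 allow shares of up to 25% of the 12 genes, 15.0% of the 20 genes and 5.88% of the 51 genes. That limit is meant for random samples, and the lists were chosen by hand. Beside the 1.35% of all protein-coding genes with a Nutlin-3a peak, nothing particular to these lists can be read from counts of 0.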

How the data were processed

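RFX7 ChIP and input libraries of RPE-1 cells were compared by treatment, with groups and replicate numbers taken from the titles. Per the submitters' processing notes, the build was hg38 and the tools included Trimmomatic 0.39, SAMtools 1.10, Picard, MACS2 2.2.7.1 and bedtools 2.29.2. How replicates and inputs entered the peak call is not given in the sources used here. The lists have the narrowPeak layout. The authors deposited a score, a fold enrichment, which is a ratio whose reference is not given, −log10 p and q values, and a summit offset in bp for each peak. These were used to describe and rank peaks within a list. Read depth is unknown.

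Overlaps, ranks, distances and motif matches were computed with Python 3.11.15 and pandas 2.3.3, and checked on simulated data. Gene records, promoter windows and sequences came from RefSeq (GRCh38.p14). The promoter table covers part of the genes, and both members and DCP2 matched in it. Shared peaks overlapped by at least 1 bp. The text names PNRC1, PNRC2, genes next to them or to their peaks, the nearest peaks in fold enrichment at named genes, and list genes with a peak. The members and lists were chosen with earlier results of these data known. No test was run. Alternatives covered the windows, thresholds, overlap rule, rank measure, reference point and motif. A search around summits was not run, as no genome sequence was used.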

Additional observations from a re-analysis of the deposited data

How the results depend on the processing

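No paired analysis was possible because the values are 2 lists of peaks, 1 for either treatment, in which replicates are not separated. Leaving out a replicate was not possible either. The number of peaks at each gene was the same with windows of 1, 50 and 100 kb, with −log10 q of at least 5 or 10, and with the summit in place of the whole peak. The PNRC1 region counted as shared with 1 bp or 50% of either peak, but 0 regions were shared with 50% of both peaks or with summits within 100 bp. This follows from the widths and the summit distance. Ranks turned on the measure. The DMSO peak at PNRC1 ranked 50 by fold enrichment, 201 by −log10 p or q, 185 by width, 21 among peaks outside clusters, and 1 of 1 at protein-coding boundaries. The Nutlin-3a peak at PNRC1 ranked 139, 32, 1, 111 and 47 in the same order, and that at PNRC2 ranked 74, 28, 11, 61 and 29. Distances from the start by summit, middle and nearest edge were 905, 977 and 878 bp for the DMSO peak. For the Nutlin-3a peaks they were 85, 709 and 26 bp at PNRC1 and 516, 74 and 0 bp at PNRC2. From the start of the PNRC2 record, the summit lay 148 bp and the left edge 109 bp downstream. With a window of 50 kb, a peak was found at 41 protein-coding genes for DMSO and 571 for Nutlin-3a, and at 2 genes of the decapping list for Nutlin-3a. The full X-box with at most 1 mismatch, and, added after seeing the data, the half-site GTTACC and an X-box with 1 spacer base, gave 0 matches in either promoter. The half-site GTTACT, also added, gave 0 matches in PNRC1 and 1 in PNRC2. Unknown depth limits all statements on missing peaks.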
